A study of Caenorhabditis elegans with 12 samples.

Results

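Innexins are the proteins that build gap junctions in invertebrates. They cross the membrane several times, assemble into hemichannels, and hemichannels of neighbouring cells dock to let ions and small molecules pass. In the *C. elegans* gonad, hemichannels of INX-8 and INX-9 in the somatic sheath dock with germ-cell hemichannels that hold INX-14 with INX-21 or INX-22. These junctions are known to be needed for germ cell proliferation and to hold oocytes from maturing until sperm signal. The 10 innexin genes described here were chosen by name for these roles: *inx-8* and *inx-9* of the gonadal sheath, the germ-line partners *inx-14*, *inx-21* and *inx-22*, and *inx-3*, *inx-5*, *inx-7*, *inx-12* and *inx-13*, expressed in epithelia and other somatic cells. They are 10 of the 46687 genes in the count table and 10 of its 25 innexin family genes.

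Their RNA was measured in cells of the proximal somatic gonad (PSG), sorted for GFP from a single-copy *Pfos-1a::gfp* transgene, whose promoter marks cells of the spermatheca and uterus, in adults of day 1 (D1) or day 7 (D7). All animals carried the insulin receptor allele *daf-2(e1370)*, written *daf-2(rf)*, which reduces its function. The double mutant *daf-16(0); daf-2(rf)* also carried *daf-16(mu86)*, a null allele of the FOXO transcription factor that insulin signalling restrains. Each of the 4 groups had 3 biological replicates from pooled hermaphrodites, 12 libraries in all, and 1 strain stood for each genotype, so that any other difference between the strains cannot be told apart from *daf-16*.

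Libraries held from 6183054 to 16407304 reads on genes. Levels are given as deposited FPKM (reads per kilobase of exon on a common library scale) when genes are compared with each other, and as CPM (reads scaled to a common library size after TMM normalization) when groups are compared. After TMM, 1 read stood for between 0.0249 CPM in *daf-2(rf)* D7 replicate 2 and 0.373 CPM in replicate 1 of the double mutant on D1. Counts on *daf-16* lay between 351 and 1102 reads in *daf-2(rf)* and between 20 and 139 in the double mutant. Of the 6 listed spermatheca and uterus markers, *fkh-6*, *sth-1*, *fos-1* and *fln-1* had mean levels of 322, 146, 139 and 90.2 FPKM, and *cog-1* and *egl-13* of 2.75 and 0.582 FPKM. The sheath genes *acy-4*, *ceh-18* and *lim-7* had 3.90, 2.90 and 0.538 FPKM, and the oocyte genes *oma-1* and *rme-2* had 13.1 and 1.72 FPKM. In these sorted populations, fewer cells of a type and less RNA per cell cannot be told apart.

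Of the 10 genes, the neighbours *inx-12* and *inx-13* had the highest levels in every library. *inx-12* and *inx-13* are known as genes needed by the excretory canal and the epidermis. *inx-12* had a mean of 68.3 FPKM over 12 libraries (39.4 to 106) and *inx-13* of 39.0 FPKM (22.6 to 57.4). By mean FPKM, *inx-12* was 393rd and *inx-13* 595th of 20528 protein-coding genes. The excretory cell markers *exc-9*, *aqp-8* and *glt-3* had mean levels of 0.798, 0.0915 and 0.0189 FPKM. Of the hypodermal markers, the transcription factor genes *lin-26* and *elt-3* had 2.09 and 0.454 FPKM, the collagen genes *rol-6* and *dpy-7* had 0.0755 and 0.0674 FPKM, and *nhr-73* had 0 reads. The 3 listed excretory markers summed to 0.155 to 0.823 CPM in the D1 libraries and had medians of 0.959 CPM in *daf-2(rf)* and 0.248 CPM in the double mutant on D7, and the 5 hypodermal ones summed to 2.24 to 8.66 CPM in a library.

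Next in order came *inx-5* (mean 17.2 FPKM, 9.71 to 27.7), *inx-7* (16.4 FPKM, 8.85 to 27.2) and the sheath gene *inx-8* (14.1 FPKM, 2.01 to 28.7). These 3 were not separated by their spread, since *inx-5* lay above *inx-7* in 7 of 12 libraries and *inx-7* above *inx-8* in 7 of 12. The sheath partner *inx-9* followed at 4.05 FPKM (0.574 to 8.57), below *inx-8* in all 12 libraries. *inx-3*, a widely expressed innexin of embryonic epithelia, had 0.992 FPKM (0.328 to 2.40), and *inx-9* lay above it in 10 of 12 libraries. The germ-line gene *inx-14* had 0.750 FPKM (0.181 to 1.65) and was not separated from *inx-3*, which was higher in 8 of 12. The other germ-line partners were lowest, with *inx-22* at 0.207 FPKM (at most 0.901) and *inx-21* at 0.0923 FPKM (at most 0.221). Over all 12 libraries, 40 reads were counted on *inx-22* and 24 on *inx-21*, with none in 4 and 5 libraries. A count of 0 allows up to 3 reads, a limit that covers counting error only.

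**Figure D1:**
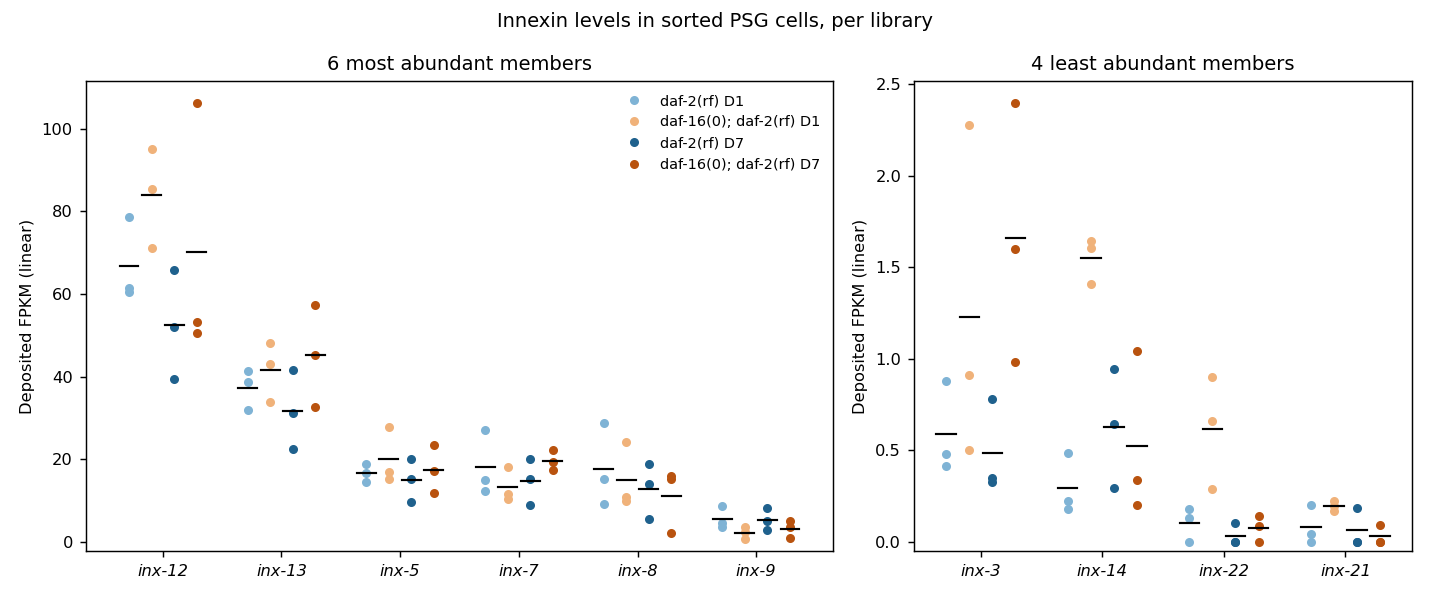
Deposited FPKM (linear axes) of the 10 innexins, 1 point per library and a bar at the mean of each group of 3. *inx-12* (39.4 to 106 FPKM) and *inx-13* (22.6 to 57.4 FPKM) lie above the rest, and *inx-14* stands at 1.41 to 1.65 FPKM in the double mutant on D1.

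The order was read against the whole family. The 10 genes held between 88.8% and 97.0% of the summed FPKM of the 25 innexin genes in a library. *inx-12* with *inx-13* held 53.7% to 71.4%, *inx-5* with *inx-7* 14.4% to 24.1%, and the sheath pair *inx-8* with *inx-9* 2.09% to 20.4%. The germ-line trio *inx-14*, *inx-21* and *inx-22* held 0.114% to 1.45%. Of the 15 other innexins, *inx-11* (5.52 FPKM), *inx-10* (3.39 FPKM) and *inx-2* (0.746 FPKM) had the highest means, and the other 12 had means of 0.0388 to 0.455 FPKM. By mean FPKM, *inx-11* and *inx-10* therefore ranked above *inx-3* and the germ-line partners, and *inx-11* also above the sheath gene *inx-9* (4.05 FPKM).

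**Figure D2:**
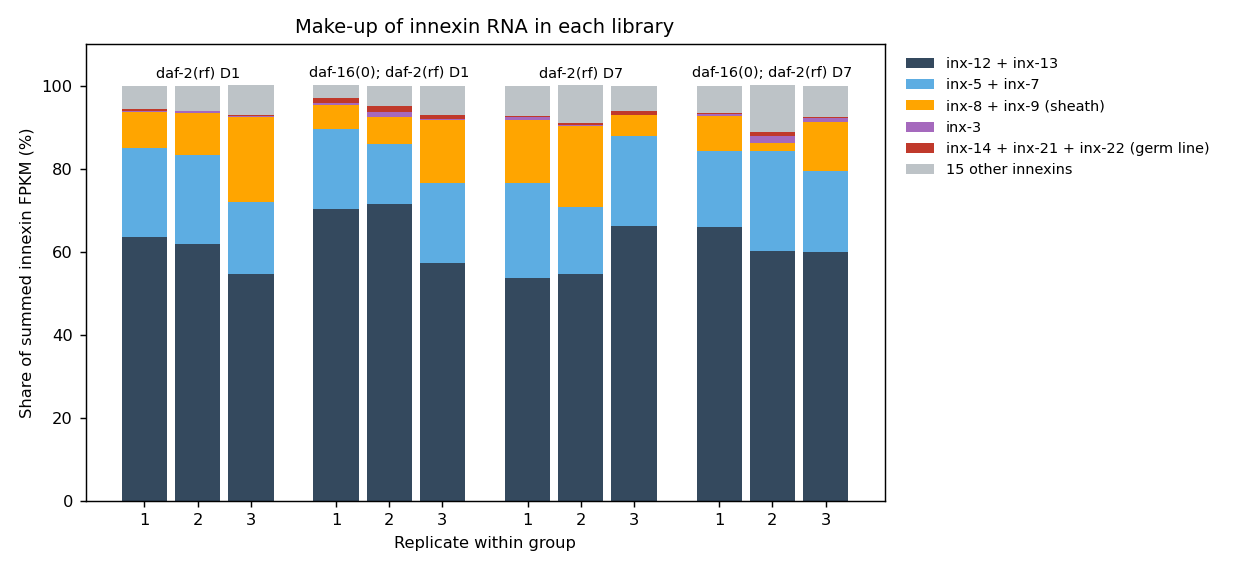
Share of the summed FPKM of 25 innexin genes (%, linear axis) taken by sets of innexins in each library, by group and replicate. *inx-12* and *inx-13* hold 53.7% to 71.4% in every library, while the share of the sheath pair runs from 2.09% to 20.4%.

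The positions are those of the WBcel235 build in the deposited table. *inx-8* (ZK792.2, chromosome IV, 11673816 to 11675638) and *inx-9* (ZK792.3, 11676352 to 11678496) lie on the plus strand 713 bases apart, and in the Ensembl annotation each has 4 exons and a coding length of 1146 bases. *inx-13* (Y8G1A.2, chromosome I, 3748524 to 3753961) and *inx-12* (ZK770.3, 3755470 to 3759073) lie on the minus strand 1508 bases apart. *inx-22* (Y47G6A.2, chromosome I, 3608395 to 3611844) and *inx-21* (Y47G6A.1, 3611909 to 3618318) lie on the plus strand with 64 bases between them. *inx-14* (F07A5.1) is on chromosome I at 7350378 to 7352197, *inx-7* (K02B2.4) on chromosome IV at 5943981 to 5946679, and *inx-3* (F22F4.2) and *inx-5* (R09F10.4) on chromosome X at 5996154 to 5998251 and 8299827 to 8302382.

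Levels within the 3 neighbouring pairs were followed over the 12 libraries, as a description. The ratio of *inx-12* to *inx-13* in FPKM ran from 1.12 to 2.21 (median 1.76), and their log2 CPM had a Pearson r of 0.805 across the 12 libraries. The ratio of *inx-8* to *inx-9* ran from 1.70 to 18.8 (median 3.37), with r = 0.649 across the same 12 libraries. The highest ratio came from replicate 1 of the double mutant on D1, where *inx-9* had 2 reads. The authors' table describes both *inx-8* and *inx-9* by the same protein, Innexin-8, and how reads that match both genes were counted was not given in the sources used here, so the split between them is uncertain. For *inx-22* and *inx-21*, r was 0.667, at counts too low for a ratio. Among members that are not neighbours, the highest values were 0.726 for *inx-14* and *inx-22*, 0.689 for *inx-5* and *inx-12*, and 0.624 for *inx-21* and *inx-12*. These lay below the 0.805 of *inx-12* and *inx-13*, and the lowest value was -0.575, for *inx-9* and *inx-22*. All pairs share the depth and normalization of the libraries.

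For the sheath genes *inx-8* and *inx-9*, no difference between genotypes or ages was called. *inx-8* had 13.4, 21.4 and 41.0 CPM in *daf-2(rf)* on D1 and 14.9, 14.7 and 35.8 CPM in the double mutant. On D7, *inx-8* had 26.5, 19.4 and 7.40 CPM in *daf-2(rf)* and 21.7, 2.85 and 20.9 CPM in the double mutant. The groups overlapped at both ages, and 1 double-mutant library on D7 (replicate 2) was the lowest of all 12. In that library *inx-9* was also low, at 1.30 CPM.

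*inx-9* had 4.76, 5.94 and 11.5 CPM in *daf-2(rf)* on D1 against 0.746, 3.29 and 5.08 CPM in the double mutant. It entered the D1 test through *daf-2(rf)*, where all 3 replicates had over 10 reads, while the double mutant had 2, 32 and 29 reads. The groups overlapped by 1 library, and the log2 fold change of 1.15 had a 95% interval from -0.15 to 2.46 (standard error 0.59, edgeR adjusted p = 0.245). These p-values come from the quasi-likelihood F test of edgeR, adjusted over all genes tested by the Benjamini-Hochberg method, and a positive log2 fold change between genotypes means a higher level in *daf-2(rf)*. On D7, *inx-9* had 6.63, 10.7 and 3.57 CPM in *daf-2(rf)* and 6.44, 1.30 and 4.51 CPM in the double mutant (log2 fold change 0.76, -0.61 to 2.14, edgeR adjusted p = 0.529). The share of *inx-8* in the FPKM of the pair was 72.6%, 77.2% and 77.0% in *daf-2(rf)* on D1 and 94.9%, 80.8% and 86.9% in the double mutant, without overlap and from 42 to 676 reads per library, and this difference was not tested. On D7, this share overlapped between genotypes (62.9% to 79.0% against 67.3% to 81.3%). The 3 listed sheath markers summed to 22.7 to 44.3 CPM in *daf-2(rf)* and 10.1 to 18.5 CPM in the double mutant on D1, and to 7.43 to 14.7 CPM in *daf-2(rf)* and a median of 24.7 CPM (highest 31.9 CPM) in the double mutant on D7, where the genotypes did not overlap. None of these 3 was at 0 in a whole group, and their part in the levels of *inx-8* and *inx-9* was not tested.

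**Figure D3:**
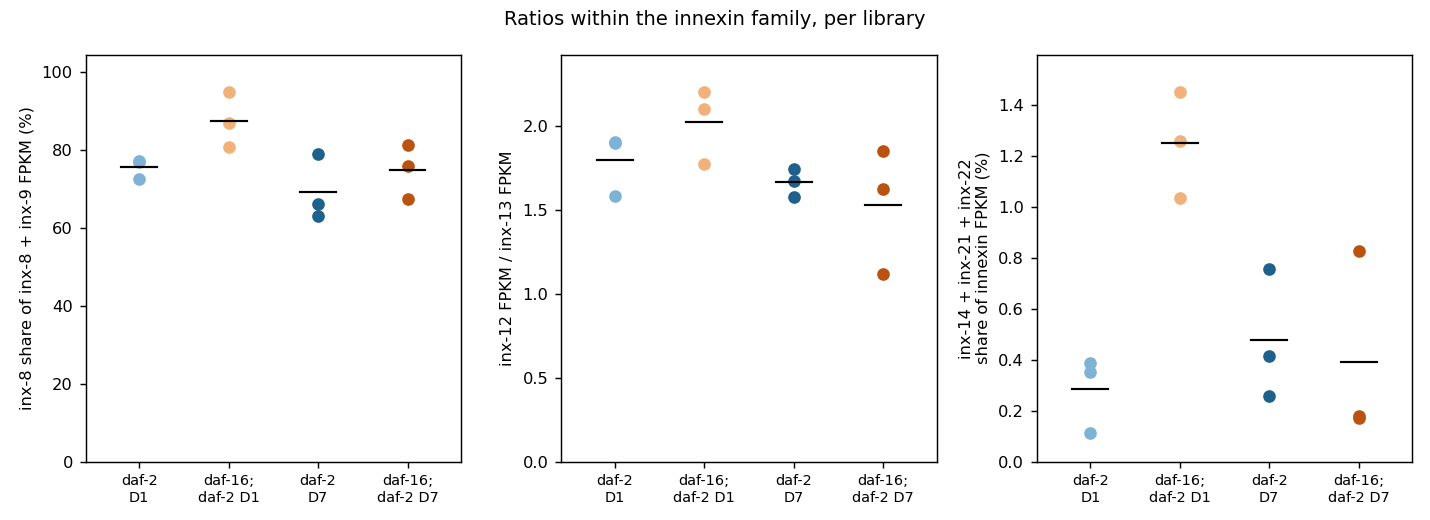
*inx-8* share of *inx-8* plus *inx-9* (%), ratio of *inx-12* to *inx-13*, and germ-line share of innexin FPKM (%), linear axes, 1 point per library and a bar at each group mean. On D1, the *inx-8* share is 72.6% to 77.2% in *daf-2(rf)* and 80.8% to 94.9% in the double mutant, and the germ-line share is highest in the double mutant on D1 (1.04% to 1.45%).

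Of the germ-line partners, *inx-14* did not overlap between genotypes on D1, like 32.2% of all genes tested there, and did overlap on D7. It had 0.357, 0.417 and 0.932 CPM in *daf-2(rf)* on D1 (3, 4 and 12 reads) against 2.98, 3.29 and 2.80 CPM in the double mutant (8, 32 and 16 reads). The 3 double-mutant libraries lay above all 9 others. These counts were under the minimum for the D1 test, which asked for over 10 reads in each of the 3 replicates of a group. Without that minimum, the log2 fold change of *inx-14* came to -2.24 ± 0.77 (standard error, edgeR adjusted p = 0.0657), and with all 12 libraries in 1 fit to -2.36 ± 0.72 (edgeR adjusted p = 0.0815). Neither passed 0.05.

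On D7, *inx-14* had 1.22, 0.549 and 1.74 CPM in *daf-2(rf)* and 0.618, 1.98 and 0.370 CPM in the double mutant. The groups overlapped (log2 fold change 0.25, 95% interval -1.45 to 1.95, edgeR adjusted p = 0.877). Whether the genotype difference itself changed from D1 to D7 was tested with all 12 libraries. *inx-14* met the read minimum in *daf-2(rf)* on D7 alone, and entered the D7 and interaction tests through that group. For *inx-14* the interaction was 2.59 on the log2 scale (95% interval 0.50 to 4.69, edgeR adjusted p = 0.139), and it did not pass after adjustment. With 1 library left out it ran from 2.16 to 3.59, the highest without replicate 2 of the double mutant on D7 (adjusted p from 0.0988 to 0.281 in edgeR).

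*inx-22* followed the same order at lower counts, with 0.238, 0 and 0.311 CPM in *daf-2(rf)* on D1 and 1.12, 1.65 and 0.526 CPM in the double mutant, from 0 to 16 reads per library. Without the read minimum its D1 log2 fold change came to -2.39 ± 1.09 (standard error, edgeR adjusted p = 0.253). *inx-21* had at most 11 reads in any library and its groups overlapped on D1. Of 12 listed markers of the germ line and oocytes, 9 were tested on D1, with a median log2 fold change of -2.38 beside -0.02 over all genes tested, and 6 were called lower in *daf-2(rf)* (2.26% of all genes) and 0 higher (1.26%). In *daf-2(rf)* on D1, most of their summed level came from *glp-1*, the germ-line Notch receptor, at 82.4 to 208 CPM. In the double mutant on D1, *glp-1* ran from 50.3 to 106 CPM and most of the sum came from the others. The other 11 summed to 22.5 to 28.7 CPM in *daf-2(rf)* and 112 to 150 CPM in the double mutant, without overlap, and none of the 12 was at 0 in a whole group. Of 7 listed intestine markers, 4 were tested on D1 and 3 were called lower in *daf-2(rf)*, and their sums of 208 to 390 CPM in *daf-2(rf)* and 314 to 1571 CPM in the double mutant overlapped. The part of these markers in the level of *inx-14* was not tested. *inx-14* shares 9 bases with *F52A8.6* on the other strand, on which 12902 reads were counted over all libraries, and the strand setting of the counting was not given in the sources used here. *F52A8.6* went the other way on D1, with a mean of 121 CPM (SD 47.9, n = 3) in *daf-2(rf)* against 66.1 CPM (SD 27.6, n = 3) in the double mutant.

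*inx-3* was the member whose genotype value lay farthest from 0 among those tested on D7. It had 1.31, 0.574 and 0.534 CPM in *daf-2(rf)* (15, 23 and 19 reads) against 1.60, 4.03 and 2.59 CPM in the double mutant (31, 65 and 35 reads). All 3 double-mutant libraries lay above all 3 *daf-2(rf)* libraries, and 25.5% of all genes tested on D7 were without overlap in either direction. The log2 fold change was -1.82 (95% interval -3.14 to -0.51, standard error 0.57, edgeR adjusted p = 0.147), which was not called. DESeq2's Wald test called it (log2 fold change -1.86, DESeq2 adjusted p = 0.0331), in a comparison where that tool called 702 of all genes and edgeR 91. The sums of intestine, hypodermal and sheath markers lay in the same direction on D7. Of 7 listed intestine markers, 5 were tested and all 5 were below 0 (median -3.39 beside 0.03 over all genes). All 5 were without overlap, beside that 25.5% of all genes. edgeR called 2, *act-5* (-2.92) and *pept-1* (-6.94), where 1.15% of all genes were called. The 7 summed to 14.9 to 33.0 CPM in *daf-2(rf)* and 88.4 to 703 CPM in the double mutant, and none was at 0 in a whole group. Their part in the level of *inx-3* was not tested. On D1, *inx-3* had 0.832, 1.46 and 0.699 CPM in *daf-2(rf)* and 1.49, 4.01 and 0.876 CPM in the double mutant, which overlapped and were under the read minimum.

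*inx-12* had 92.0, 115 and 91.2 CPM in *daf-2(rf)* on D1 and 137, 132 and 109 CPM in the double mutant. On D7 it had 76.6, 57.0 and 94.1 CPM in *daf-2(rf)* and 152, 78.5 and 71.9 CPM in the double mutant. The genotypes overlapped at both ages, by 1 library on D1, and the double mutant had the highest library each time. The log2 fold change between genotypes was -0.41 on D1 (95% interval -1.27 to 0.45, edgeR adjusted p = 0.533) and -0.40 on D7 (-1.28 to 0.48, edgeR adjusted p = 0.611). These intervals leave room for a fold of 0.414 to 1.37 on D1 and of 0.411 to 1.40 on D7.

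*inx-13* lay between 48.4 and 60.2 CPM in *daf-2(rf)* and between 51.9 and 74.3 CPM in the double mutant on D1. On D7, *inx-13* lay between 32.6 and 59.5 CPM and between 48.1 and 81.8 CPM. *inx-5* and *inx-7* varied 2.85-fold and 3.07-fold in FPKM between their lowest and highest of the 12 libraries. The genotypes overlapped for all 3 of these genes at both ages. With age, the value farthest from 0 among the epithelial members was that of *inx-7* in the double mutant, with 19.8, 23.9 and 36.8 CPM on D1 and 41.7, 33.8 and 36.2 CPM on D7 (log2 fold change 0.46, 95% interval -0.39 to 1.32, edgeR adjusted p = 0.431). *inx-7* shares 21 bases with *K02B2.1* on the other strand.

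**Figure D4:**
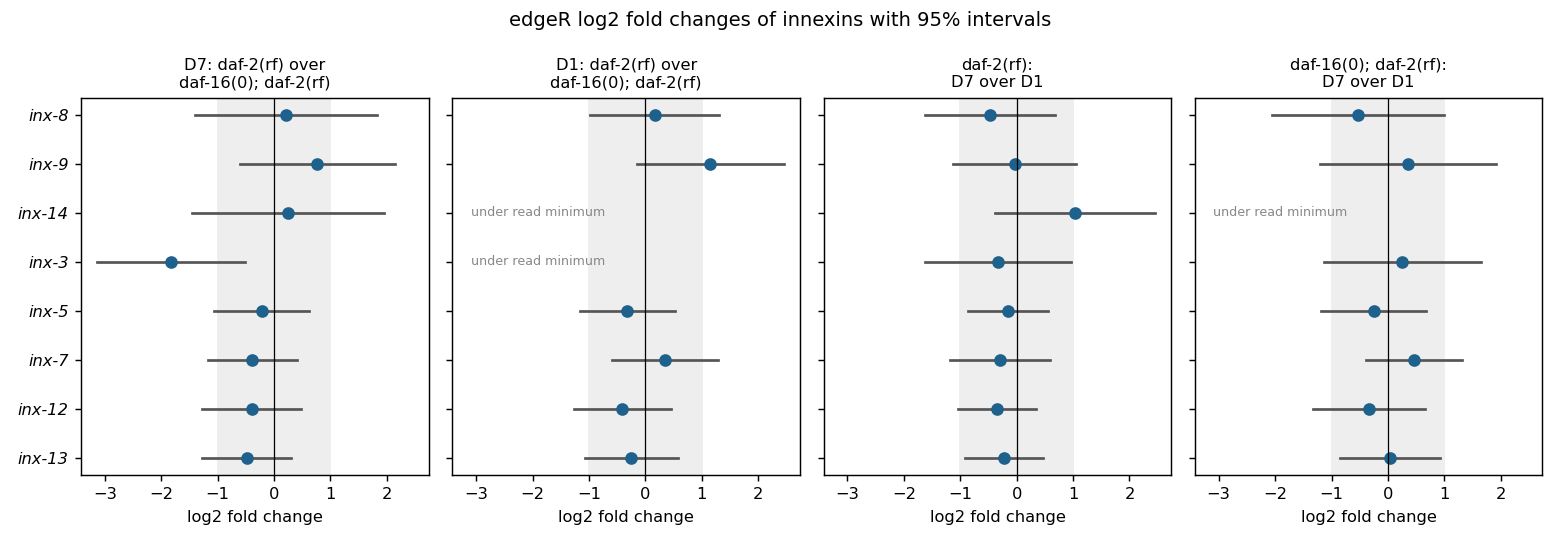
edgeR log2 fold changes (points) with 95% intervals (lines) of the 8 innexins with enough reads in at least 1 comparison, for genotype on D7 and D1 and for age in each genotype, with the range from -1 to 1 shaded. All intervals cross 0 except that of *inx-3* on D7 (-3.14 to -0.51).

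Counted over the comparisons, edgeR called none of the members (adjusted p below 0.05 with a log2 fold change of 1 or more in either direction; for the interaction, adjusted p alone). Between genotypes on D7, 8 of the 10 had enough reads and 0 were called, where 1.15% of all genes tested were, and 1 member (*inx-3*) had an unadjusted p under 0.05, where 18.8% of all genes did. DESeq2 called that 1 member and limma 0. The groups did not overlap at 1 of the 8, where 25.5% of all genes tested did not overlap. On D1, 6 were tested and 0 called (3.51% of all genes), 0 had an unadjusted p under 0.05 (24.9% of all genes), 0 were without overlap (32.2% of all genes), and DESeq2 and limma called 0. *inx-14* and *inx-22*, under the read minimum and so outside this count, did not overlap in CPM on D1. The members' median log2 fold change was -0.31 on D7 and -0.04 on D1, beside 0.03 and -0.02 over all genes tested.

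From D1 to D7 in *daf-2(rf)*, 0 of 8 members tested were called (0.218% of all genes) and 0 had an unadjusted p under 0.05 (22.2% of all genes). Their median was -0.26 beside 0.07 over all genes, and 7 of the 8 had negative values. The exception was *inx-14*, at 1.03 (95% interval -0.39 to 2.45, edgeR adjusted p = 0.363). It met the read minimum only through D7 (14, 22 and 62 reads, against 3, 4 and 12 on D1). D7 was the group where it was higher, so the filter favoured a positive value. In *daf-16(0); daf-2(rf)*, 0 of 7 were called (0.583% of all genes) and 0 had an unadjusted p under 0.05 (29.7% of all genes), with a median of 0.03 beside 0.08. For the interaction, 0 of 8 were called (0.704% of all genes) and 1, *inx-14*, had an unadjusted p under 0.05 (23.6% of all genes). DESeq2 and limma called 0 members in these 3 comparisons too. The groups overlapped at every member tested with age, where 28.3% of all genes in *daf-2(rf)* and 38.6% in the double mutant did not overlap. The germ-line partners, under the read minimum in the double mutant, did not overlap in CPM with age there, while their unscaled reads did overlap. *inx-14* had 2.80 to 3.29 CPM on D1 (8, 32 and 16 reads) and 0.370 to 1.98 CPM on D7 (12, 32 and 5 reads). *inx-22* had 0.526 to 1.65 CPM on D1 (3, 16 and 3 reads) and at most 0.248 CPM on D7 (0, 4 and 2 reads). *inx-21* had 0.309 to 0.373 CPM on D1 (1, 3 and 2 reads) and at most 0.155 CPM on D7 (3, 0 and 0 reads). Without the minimum, edgeR gave log2 fold changes of -1.45 for *inx-14* (adjusted p = 0.248), -2.90 for *inx-22* (adjusted p = 0.0909) and -2.23 for *inx-21* (adjusted p = 0.524), none past 0.05. Of the 12 listed markers of the germ line and oocytes, 10 were tested with age in the double mutant. Of these, 9 were negative and 1 positive (median -2.47 beside 0.08 over all genes). edgeR called 2 of them lower, where 0.583% of all genes were called in either direction. Their part in the levels of the germ-line partners was not tested.

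Other genes of signalling between sheath, oocytes and spermatheca were read from a list of 19. On D1, 18 were tested, with a median log2 fold change of -0.12, and edgeR called 2, both lower in *daf-2(rf)*, where 3.51% of all genes were called and 2.26% called lower. These were *oma-1* (-2.27, edgeR adjusted p = 0.0318) and *oma-2* (-2.38, edgeR adjusted p = 0.0462), whose products are RNA-binding proteins needed for oocyte maturation. DESeq2 called these and *plc-1*, limma called the same 2, and 7 had an unadjusted p under 0.05 in edgeR, where 24.9% of all genes did. On D7, edgeR called 0 of 17 (median -0.47, 4 with an unadjusted p under 0.05, beside 18.8% of all genes), DESeq2 called 3 and limma 0. With age, edgeR called 0 of 17 in *daf-2(rf)* (median -0.77, 7 with an unadjusted p under 0.05, beside 22.2%) and 0 of 18 in the double mutant (median 0.15, 7 with an unadjusted p under 0.05, beside 29.7%), where DESeq2 called 4 and 7 and limma 0 and 0. The interaction was called by edgeR at 1 of 18 (0.704% of all genes), *itr-1*, the inositol trisphosphate receptor that releases calcium (-3.22 on the log2 scale, edgeR adjusted p = 0.0462). DESeq2 called it at 4 (10.4% of all genes) and limma at 3 (1.79%), each time with *itr-1* among them. With upper-quartile normalization, edgeR called the interaction at 1 of all 8096 genes. Over all genes, DESeq2 called from 8.85% on D7 to 17.9% with age in the double mutant. *acy-4*, the adenylate cyclase of the sheath, was called by DESeq2 on D7, with age in *daf-2(rf)* and for the interaction, and by edgeR in none of the 5 comparisons.

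Genes whose log2 CPM most resembled the most abundant member of each role were looked for among 8095 genes over the 12 libraries, as a description. *inx-8* was most like *cle-1* (r = 0.924), which encodes a collagen of basement membranes, *W09C3.7* (r = 0.914) and *C44B7.5* (r = 0.911). *inx-12* was most like *apg-1* (r = 0.915), *M01D7.11* (r = 0.892) and *Y18D10A.16* (r = 0.887). *inx-14* was most like *vha-16* (r = 0.901), *zhit-1* (r = 0.896) and *zip-4* (r = 0.887).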

How the data were processed

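RNA of FACS-sorted PSG cells was amplified with the SMARTer kit. The authors aligned reads to WBcel235 with HISAT2 2.0.5 and deposited featureCounts 1.5.0-p3 read counts per gene, without normalization. The authors' deposited FPKM equals the count divided by gene length and the library's DESeq2 size factor, up to a constant, which was checked on the values. edgeR 4.0.16 in R 4.3.3 (TMM, quasi-likelihood F test, Benjamini-Hochberg over all genes tested) compared the 6 libraries of each pair of groups, and all 12 for the interaction of genotype and age. A gene was tested where all 3 replicates of some group had more than 10 reads. Standard errors and 95% intervals were back-calculated from the F statistic and are approximate. Positive values between genotypes are higher in *daf-2(rf)*.

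All 10 members are named, as are other innexins and listed genes that were called, the 3 most abundant other innexins, and the 3 genes most alike in log2 CPM (prior count 2) to the most abundant member of each role. Members, lists and alternatives were chosen with earlier results of these data known. Alternatives were DESeq2 1.42.0, its size factors, upper-quartile normalization, no or a stricter filter, robust estimates, limma 3.58.1 on log2(FPKM + 1) or log2(FPKM + 0.1), 1 joint fit, a log2 threshold of 2, replicate number as a term, and leaving out each library. The steps were tested on simulated data. Same-numbered replicates of different groups had correlations of their deviations between -0.266 and 0.247, beside -0.248 to 0.254 for different-numbered ones. No pairing was seen there, and the main fits used none. The replicate number as a term did raise the share of genes called between genotypes on D1, from 3.51% to 7.43%.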

Additional observations from a re-analysis of the deposited data

How the results depend on the processing

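The 37 log2 fold changes of the members were recomputed under 652 alternatives in all, of which 595 kept the direction and the side of the threshold, 56 turned the direction and 1 gained a call. That 1 was *inx-3* on D7 with DESeq2, so 1 member was called there. The values that turned lay between -0.53 and 0.36, and the direction never turned for *inx-3* on D7 or the *inx-14* interaction, whose adjusted p ran from 0.0683 to 0.281 and whose value ran from 2.16 to 3.59 with 1 library left out. Of the 56, 15 came from other settings. With age in *daf-2(rf)*, *inx-9* was 0.01 with upper-quartile normalization, 0.01 without a filter and 0.03 with more than 10 reads in every library. With that stricter filter, *inx-5* was 0.15 and *inx-12* 0.04 with age in the double mutant. For the interaction, *inx-8* was -0.01 with DESeq2, -0.01 with its size factors, -0.07 without a filter and -0.13 with the stricter one. There, *inx-5* was -0.06 without a filter, -0.13 with the stricter one, and -0.01 and -0.02 with limma, and *inx-12* was 0.06 with upper-quartile normalization, which moved the median of all genes by 0.12.

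The replicate number as a block gave 0 called members in each comparison, which says nothing about the members on D7, since 0 of all 7933 genes were called there, and in the others it called from 0.204% to 7.43% of all genes. It turned *inx-5* for the interaction to -0.01. Without 1 library, values between genotypes on D7 ran for *inx-12* from -0.62 to 0.02, for *inx-14* from -0.25 to 1.25, for *inx-5* from -0.53 to 0.04 and for *inx-8* from -0.25 to 0.58. Without 1 library, values for the interaction ran for *inx-12* from -0.25 to 0.38, for *inx-5* from -0.31 to 0.31, for *inx-8* from -0.56 to 0.56 and for *inx-9* from -0.94 to 0.09. Without 1 library, values with age in the double mutant ran for *inx-13* from -0.21 to 0.20, for *inx-3* from -0.12 to 1.26, for *inx-5* from -0.55 to 0.05, for *inx-8* from -0.92 to 0.03 and for *inx-9* from -0.18 to 0.86. Without 1 library, values with age in *daf-2(rf)* ran for *inx-3* from -0.86 to 0.05, for *inx-5* from -0.49 to 0.05, for *inx-7* from -0.59 to 0.09, for *inx-8* from -0.96 to 0.06 and for *inx-9* from -0.55 to 0.43. Without 1 library, values between genotypes on D1 ran for *inx-5* from -0.45 to 0.01, for *inx-7* from -0.02 to 0.66 and for *inx-8* from -0.39 to 0.76. The number of called members was 0 in each omission. Intervals of most members reached past a log2 fold change of 1 in some direction, and counts on *inx-3*, *inx-14*, *inx-21* and *inx-22* of at most 65 reads limited what could be seen.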

Other observations

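Outside the 10 genes, *unc-9*, an innexin known from neurons and muscle, was chosen here after its values were seen. On D7 its counts were 2, 0 and 0 reads in *daf-2(rf)* and 14, 24 and 32 reads in the double mutant, and at most 2 reads in each of the 6 libraries on D1. Only the double mutant on D7 met the read minimum, so *unc-9* entered both tests through the group where it was high. Its adjusted p was 0.0722 between genotypes on D7 and 0.0613 from D1 to D7 in the double mutant (edgeR), so neither was called. DESeq2 called both, in comparisons where it called 8.85% and 17.9% of all genes, and limma called neither. The body-wall muscle markers summed to 64.9 to 98.6 CPM in *daf-2(rf)* and 32.3 to 192 CPM in the double mutant on D7, and the neuron markers to 91.3 to 165 and 115 to 169 CPM. None of the 5 muscle or 6 neuron markers was at 0 in all 3 libraries of either group. The 7 intestine markers summed to 14.9 to 33.0 CPM and 88.4 to 703 CPM, without overlap. On D7, the hypodermal sums were 2.37 to 4.33 CPM in *daf-2(rf)* and 5.98 to 6.36 CPM in the double mutant. These hypodermal sums did not overlap, and neither did the sheath sums on D7, given above with *inx-9*. The part of these markers in the reads of *unc-9* was not tested. On D7, *inx-15* and *inx-17*, under the read minimum and also chosen after their values were seen, did not overlap either. *inx-15* had 0, 2 and 8 reads in *daf-2(rf)* (at most 0.225 CPM) and 34, 9 and 14 in the double mutant (0.558 to 1.75 CPM). *inx-17* had 2, 0 and 0 reads (at most 0.174 CPM) and 24, 8 and 14 reads (0.496 to 1.24 CPM). Of all genes tested on D7, 25.5% were without overlap.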
